A study of Nematostella vectensis with 17 samples.

Results

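The genes described here were 30 of the 25729 gene models measured by RNA-seq in whole gastrulae of the sea anemone Nematostella vectensis. They shared a low level in control embryos and a lower one with each of the 2 brachyury morpholinos. Levels are given as CPM, the counts of a gene per 1000000 counts of its library. A gene was included if all 10 brachyury morpholino libraries were below 1 CPM and the mean of the controls was at least 0.8 CPM. The mean with each brachyury morpholino also had to be at most 50% of the control mean, and each of these 10 libraries had to lie below each control library. The genes were thus selected on their levels in all 14 libraries, so every difference from control given below is a description of the choice and not a test of it.

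The study held 17 samples, of which 14 were RNA-seq libraries and 3 were ChIP-seq samples not used here. Of the RNA-seq libraries, 4 came from embryos given a control morpholino, 6 from embryos given a translation-blocking brachyury morpholino and 4 from embryos given a splice-blocking one. All were bulk polyA RNA of whole gastrulae raised at 21°C, per the labels, with no strain, mutant allele or further agent named. For either brachyury morpholino the labels give 500 µM and an injected volume of 3 to 5 pl, while the labels give no dose for the control morpholino, so dose and target cannot be told apart in any difference from control. In bulk RNA, fewer cells of a type and less RNA per cell cannot be told apart either.

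Brachyury is a T-box transcription factor that binds DNA and changes the transcription of its target genes. In this sea anemone it is known to be expressed around the blastopore, the opening through which gastrulation proceeds and which later becomes the mouth. Morpholinos are synthetic oligomers that pair with a chosen RNA and, without cutting it, keep it from being translated or spliced. A transcript at a low level in a whole-embryo library may be present in few cells or at few copies in many cells, which such a library does not resolve.

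The sequences that define the treated groups, as the labels give them, are shown 5′ to 3′, with capitals marking the complement of the ATG start codon in the translation blocker.
BraATGMO: tcgtccgagtgCATgtccgactatg
BraSpliceMO: tccctggttgtcaaccataccgtcc
Each is 25 bases long with a GC content of 56%, and the longest run of bases they share is 5. The brachyury gene was not identified among the count table's models, so the knockdown itself was not checked here.

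The libraries held 12289649 to 80132810 counts over all gene models. Control library 1 was the deepest, and the others had at most 32175949. At these depths 1 count corresponded to 0.0125 CPM in control library 1 and to 0.0311 to 0.0814 CPM in the other 13 libraries. The 100 most abundant genes took 15.7 to 17.4% of the counts in controls, 15.9 to 17.5% in translation libraries and 16.8 to 20.2% in splice libraries. The count table pairs its identifiers with no gene names, and 0 of the 30 matched the RefSeq gene table of assembly jaNemVect1.1. The functions of the genes are therefore not given, marker genes of the tissue were not examined, and only a few identifiers are printed. The other genes are referred to by their rank from 1 to 30 in mean control level.

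In control embryos the 30 genes had mean levels of 0.921 to 2.38 CPM, with a median of 1.17 CPM, where the median gene model stood at 8.46 CPM. Only 19.7% of all gene models had a lower control mean than the lowest of the 30, and 30.7% had a lower one than the highest. The genes were thus present in every control library, with 9 to 48 counts each in control libraries 2 to 4 (median 19.5) and 58 to 277 in control library 1. With the morpholinos 1 to 24 counts were found in the translation libraries (median 7) and 0 to 15 in the splice libraries (median 7).

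The description of these genes as lost holds only in the sense of a lower level. Of the 180 values with the translation morpholino 0 were zero, and of the 120 with the splice morpholino 2 were zero. The gene ranked 22 had 0 counts in splice library 3, where 3 counts would be 0.191 CPM, and the gene ranked 13 had 0 in splice library 4, where 3 counts would be 0.192 CPM. In all other morpholino libraries both were detected. Values of at most 3 counts were found in 30 of the 180 translation and 25 of the 120 splice values, and in 0 of the 120 control values.

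**Figure D1:**
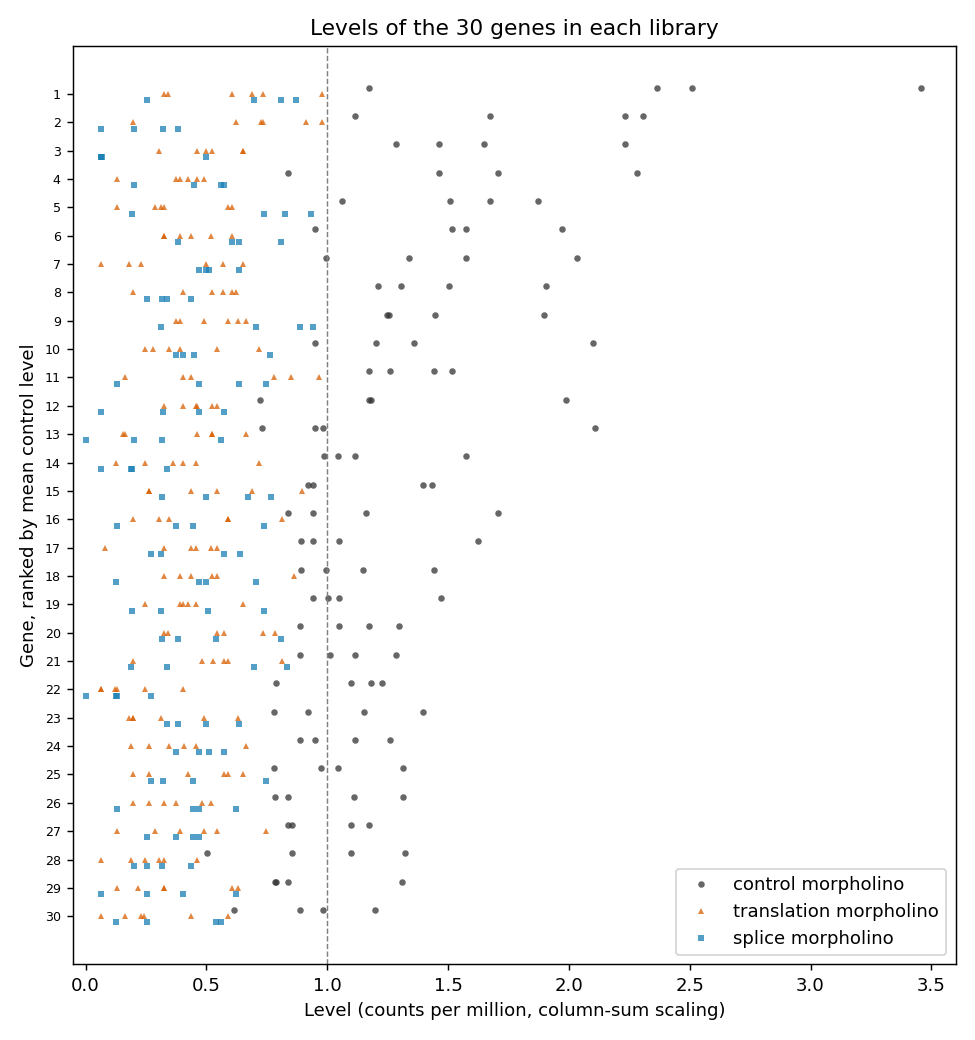
Level of each of the 30 genes (vertical axis, ranked by mean control level) in each library (horizontal axis, CPM), with 1 point per library for 4 control, 6 translation and 4 splice libraries; the dashed line marks 1 CPM. Control points spread from 0.502 to 3.46 CPM, and translation and splice points lie below 1 CPM and intermingle.

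The rule narrowed the table in steps. Below 1 CPM in all 10 morpholino libraries and at 0.8 CPM or more in the mean of controls were 159 genes. Of these, 83 were at or below 50% of control in the translation libraries and 51 in both kinds of library. The last condition, that no morpholino library reach any control library, left the 30 genes, or 18.9% of the 159. Among all 25729 gene models, 838 met that last condition, which is 3.26%; the rule itself requires it of the 30, so nothing is read from the comparison.

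Genes near the limits differed little from those just outside, except for the control mean, where the gap was wider. The highest morpholino value among the 30 was 0.979 CPM, and the nearest gene that failed only the 1 CPM limit reached 1.06 CPM, with 109 genes failing only that condition. The lowest control mean was 0.921 CPM inside and 0.725 CPM for the nearest of 21 genes outside. The most that was left in translation libraries was 49.9% inside and 50.4% in the 1 gene outside. For splice libraries these values were 48.7% inside and 51.4% in the nearest of 4. A further 21 genes failed only because a morpholino library reached a control library. Apart from the limit on the control mean, the 30 genes are thus the part of a continuous range that these limits take.

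With the translation morpholino the 30 genes kept a median of 35.2% of their control mean, ranging from 15.9 to 49.9%. With the splice morpholino the median was 37.9% and the range 10.4 to 48.7%. Less than 25% was left for 4 genes in translation libraries and for 6 in splice libraries, and more than 40% for 9 and 12 genes. The medians computed library by library had a standard deviation of 6.49 percentage points over the 6 translation and 6.13 over the 4 splice libraries. The 2 comparisons share their control libraries, so their likeness is not given as a result.

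**Figure D2:**
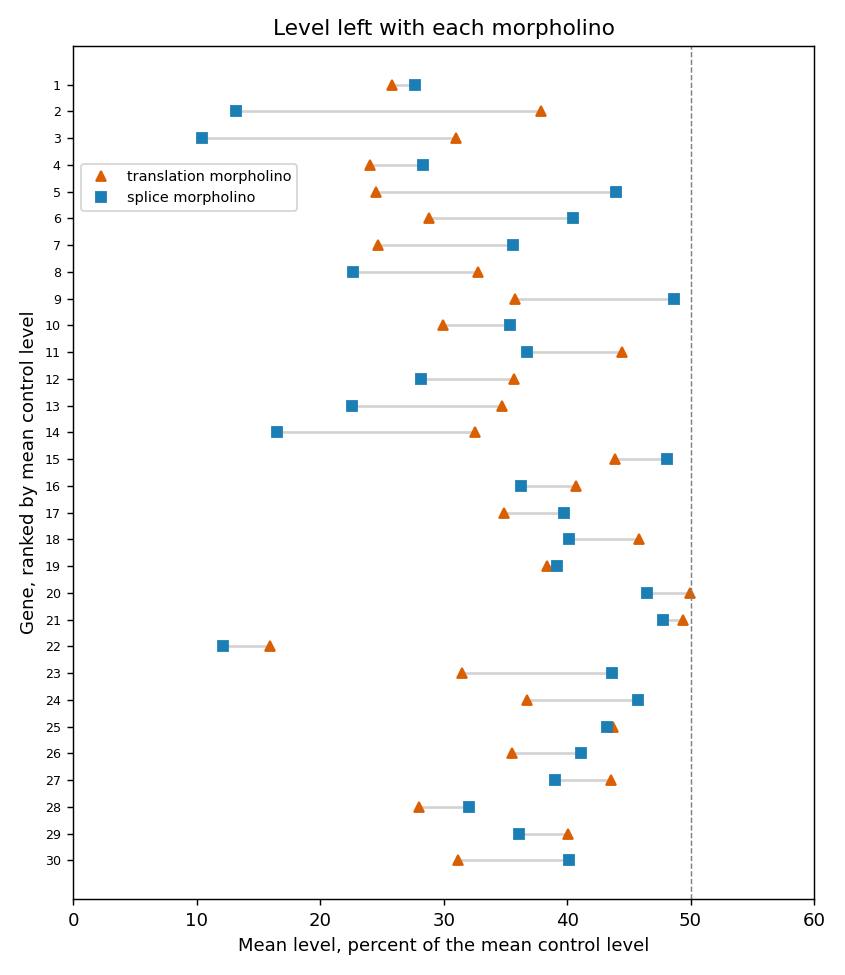
Mean level with the translation morpholino (triangles) and the splice morpholino (squares) as a percentage of the mean control level (horizontal axis) for each of the 30 genes (vertical axis, ranked by mean control level); the dashed line marks the 50% limit of the rule. Translation values lie between 15.9 and 49.9% and splice values between 10.4 and 48.7%, with wide separations for the genes ranked 2, 3, 5 and 14.

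The gene with the highest control level was NVE12741. Its control libraries 1 to 4 held 3.46, 2.36, 1.17 and 2.51 CPM. With the translation morpholino the lowest value was 0.326, the median 0.647 and the highest 0.979 CPM, and splice libraries 1 to 4 held 0.870, 0.807, 0.699 and 0.256 CPM. Control library 3 was well below the other controls and closest to the morpholino libraries, which did not reach it, and splice library 4 was the lowest of all 14. Controls averaged 2.38 ± 0.938 CPM (SD, n = 4), translation libraries 0.612 ± 0.249 CPM (SD, n = 6) and splice libraries 0.658 ± 0.277 CPM (SD, n = 4). That left 25.8 and 27.7% of control, with fitted log2 fold changes of -1.96 ± 0.33 and -1.79 ± 0.38 (SE).

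NVE13882 followed, with 2.31, 2.23, 1.12 and 1.67 CPM in control libraries 1 to 4. With the translation morpholino it ranged from 0.196 to 0.977 CPM with a median of 0.729, and splice libraries 1 to 4 held 0.0621, 0.202, 0.381 and 0.320 CPM. All 4 splice libraries lay below 5 of the 6 translation libraries, and translation library 2, with 3 counts, fell among the splice values. The level left was 37.9% in translation and 13.2% in splice libraries, or 2.64-fold and 7.59-fold lower than control. The splice mean rests on 15 counts in all, the translation mean on 75 and the control mean on 271.

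NVE23662, at rank 3, had 1.65, 2.23, 1.28 and 1.46 CPM in control libraries 1 to 4, and 0.302 to 0.651 CPM (median 0.510) with the translation morpholino. Splice libraries 1 to 4 held 0.497, 0.0672, 0.0635 and 0.0640 CPM, which is 8 counts in the first and 1 count in each of the others. The first splice library thus lay within the translation range and the other 3 far below it. With the splice morpholino 10.4% of control was left, the lowest share among the 30 genes, and with the translation morpholino 31%.

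The gene ranked 22 had the lowest remainder with the translation morpholino. Its control libraries held 0.786 to 1.23 CPM, while the 6 translation libraries together held 17 counts and the 4 splice libraries 8. Its mean went from 1.07 ± 0.199 CPM in controls (SD, n = 4) to 0.171 ± 0.131 (SD, n = 6) and 0.130 ± 0.110 (SD, n = 4), which left 15.9 and 12.1%. It is singled out here after its values were seen. At the other end, the genes ranked 15, 20 and 21 kept 43.9 to 49.9% in translation libraries and 46.4 to 48.1% in splice libraries.

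The separation between controls and morpholino libraries was narrow for most of the genes. The lowest control library exceeded the highest morpholino library by a factor of 1.03 to 1.97, with a median of 1.22, and by less than 1.2 for 14 of the 30 genes. For 29 of them the exact 95% Poisson intervals of those 2 libraries overlapped; these intervals cover counting error only. The exception was the gene ranked 8, with 97 counts in its lowest control, the deep library 1, and 20 in its highest morpholino library, translation library 6. The order of those 2 libraries is therefore not resolved by counting for 29 of the 30 genes, while the group means rest on 124 to 382 control, 17 to 75 translation and 8 to 44 splice counts per gene.

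Spread within groups, relative to the mean, was larger with either brachyury morpholino than in controls. The rule puts each control value above each morpholino value, so these spreads are shaped by the choice. Their cause was not tested. The coefficient of variation had a median over the 30 genes of 24.6% in controls, 43% in translation libraries and 48.5% in splice libraries. In controls it ranged from 11.8 to 52%, the highest being that of the gene ranked 13, which stood at 2.11 CPM in control library 1 and at 0.732 to 0.985 CPM in the other 3. The splice maximum of 125% was that of NVE23662.

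Libraries of the same group differed in the summed level of the genes. Summed over the 30 genes, control libraries 1 to 4 held 43.8, 41.7, 31.7 and 35.4 CPM. The 6 translation libraries held 9.97 to 14.8 CPM, and splice libraries 1 to 4 held 14.2, 13.4, 13.7 and 10.1 CPM. These sums averaged 38.2 ± 5.6 CPM in controls (SD, n = 4), 13.1 ± 1.86 in translation libraries (SD, n = 6) and 12.9 ± 1.9 in splice libraries (SD, n = 4). Control library 3 was the lowest control for 15 of the 30 genes, and for 43.2% of all genes tested. Control library 1 was the highest for 15 of the 30, and for 30% of all genes tested. Translation library 4 was the lowest of its group for 14 genes (27.9% of all genes tested) and splice library 4 for 12 (37.3%). Nothing is read from these orders for the 30 genes. The sums are scaled by column sums alone. TMM factors, which multiply the column sums in the model fits, were 0.964 for control library 3 and 1.03 to 1.07 for the other controls. They were 0.971 for translation library 4, 0.940 for translation library 6 and 0.903 for splice library 4.

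**Figure D3:**
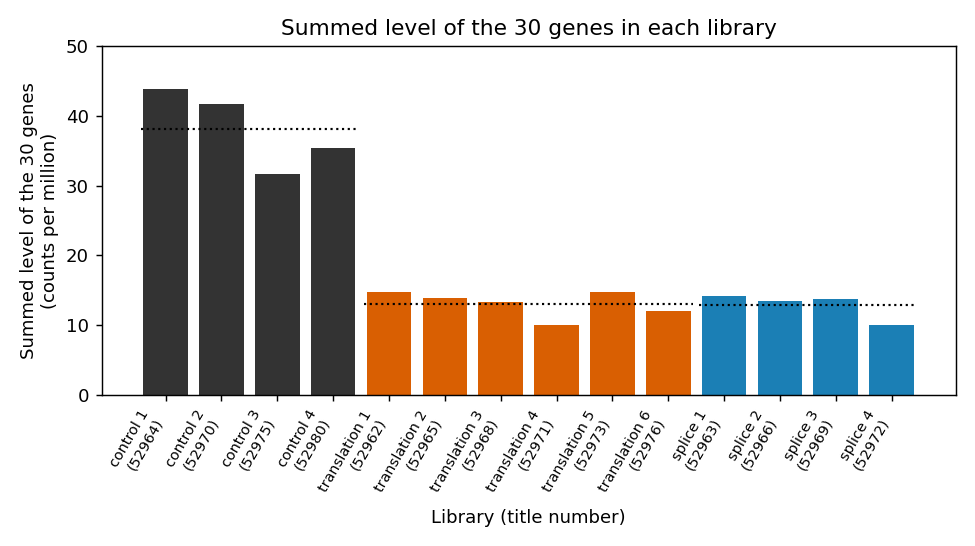
Summed level of the 30 genes (vertical axis, CPM) in each of the 14 libraries (horizontal axis, with the number that opens each library's title); bars are single libraries and dotted lines are group means. Controls stand at 31.7 to 43.8 CPM and all morpholino libraries at or below 14.8 CPM, with translation library 4 and splice library 4 lowest in their groups.

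Each library's title opens with a number whose meaning the labels do not state. Control libraries 1 and 2, numbered up to 52970, had higher sums than control libraries 3 and 4, and splice libraries 1 to 3 had higher sums than splice library 4. Translation libraries 1 to 3 held 13.3 to 14.8 CPM and translation libraries 4 to 6 held 9.97, 14.7 and 12 CPM. Within the libraries numbered up to 52970 the median level left was 30.2% for translation and 37.8% for splice libraries. Within the later ones it was 37.1% and 28.3%, the last from 1 splice library. What the title numbers contribute to the levels was not tested.

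For orientation, the model fitted to all 22109 genes that passed a filter on low counts gave the following for the 28 of the 30 genes that passed it. The genes ranked 28 and 30 did not pass. Against control, translation log2 fold changes were -2.61 to -0.96 (median -1.45, and -0.01 over all genes tested). Splice log2 fold changes were -3.1 to -0.96 (median -1.33, and 0.00081 over all genes tested). Lower levels were called by edgeR's quasi-likelihood test at an adjusted p under 0.05 for 27 genes with the translation morpholino, where 10.1% of all genes tested were called lower. With the splice morpholino 19 were called, where the share of all genes was 5.29%. These contrasts chose the genes, so the counts carry no support. Without control library 1 the counts were 15 and 9, where 5.32 and 2.79% of all genes were called lower. Among the libraries numbered up to 52970 they were 15 and 11, with 5.94 and 4.49% of all genes called lower. Among those numbered after 52970 the translation count was 0 by edgeR, where 5 of all 22697 genes, or 0.022%, were called lower. This zero therefore says nothing about the 30 genes. The later part holds 1 splice library, so no count is given for its splice contrast.

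In the authors' deposited table for the translation morpholino against control, all but 1 of the genes, 29 of 30, had a negative log2 fold change and an adjusted p under 0.05, where 10.1% of the genes with an adjusted p in that table did. The authors' deposited table gave log2 fold changes of -2.64 to -0.96, and an adjusted p of 0.056 for the remaining gene, ranked 21. It was made from the same libraries and used the same contrast as the rule.

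The rule set no condition on the difference between the morpholinos, but it used every value of both groups and capped both, which limits how far they can differ. Of the 30 genes, 5 passed the low-count filter when only translation and splice libraries were fitted. Most of the 28 tested here thus passed it through their controls. Of the genes named below, NVE12741 and NVE13882 were among the 5, while NVE23662, NVE21832 and NVE26210 were not. The counts of calls and the p-values below are for these reasons a description. Nothing is read from setting the counts beside the share of all genes. The question was whether the genes stood at different levels with the splice and the translation morpholino. By mean CPM 15 genes were lower with the splice morpholino and 15 were higher. Among the 28 genes tested the median log2 difference, splice minus translation, was -0.02, and 0.01 over all genes tested. In the same fit 15 of the 28 had a difference below 0, or, of all genes, 48.7%. By edgeR 1 of the 28 was called lower with the splice morpholino at an adjusted p under 0.05 and 0 were called higher, where 6.29 and 6.49% of all genes tested were called. At an unadjusted p under 0.05 there were 2 lower and 1 higher, together 10.7% of the 28, and 28.7% of all genes tested. DESeq2 called 2 lower and 0 higher, with 8.44 and 8.26% of all genes. Limma-voom called 1 lower, which was NVE23662 and not the gene called by edgeR, and 0 higher, with 5.75 and 6.17% of all genes.

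**Figure D4:**
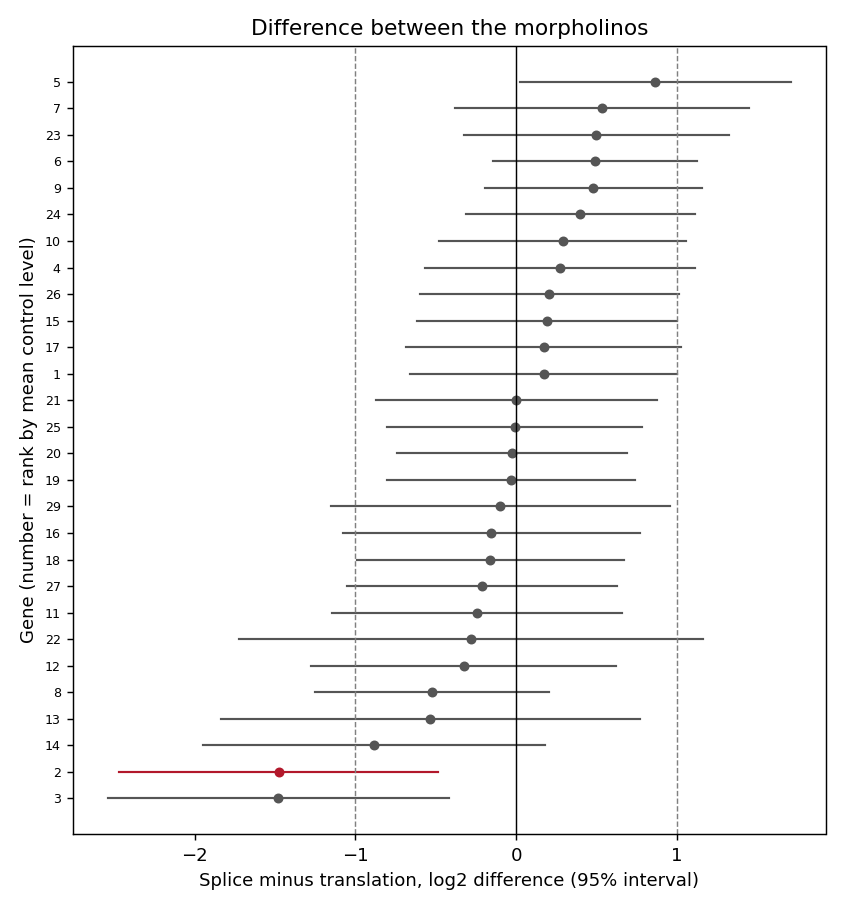
Log2 difference between the morpholinos, splice minus translation (horizontal axis), with its 95% interval from the edgeR fit, for the 28 genes tested (vertical axis, sorted by the difference and labelled by rank in control level); dashed lines mark 2-fold differences and red marks an adjusted p under 0.05. Differences run from -1.48 to 0.87, and 25 of the 27 grey intervals include 0.

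NVE13882, whose values stand above, was the gene called. Its log2 difference was -1.48 ± 0.47 (SE), a level 2.79-fold lower with the splice morpholino, with an edgeR adjusted p of 0.048. Over all 25 fits its difference stayed between -1.76 and -1.1, but the adjusted p ran from 0.017 to 0.49, and it was called in 5 of them. Without splice library 1 the difference was -1.16 (edgeR adjusted p = 0.14). The call thus sits at the threshold. The direction was the same in every fit run, but the fits reuse the same libraries, so this is no independent support.

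NVE23662 had a like difference, -1.48 ± 0.5 (SE), and missed the threshold (edgeR adjusted p = 0.063). Without splice library 1, the library with 8 counts, the difference was -2.84 and the gene was called (edgeR adjusted p = 0.0036). Without 1 of the other splice libraries it was -1.24 to -1.19 and not called. Over all fits of this gene the adjusted p ran from 0.0036 to 0.32. NVE23662 was called in 3 of the 24 fits that kept it, among them DESeq2 (adjusted p = 0.045) and limma-voom (adjusted p = 0.018). The fit of only splice and translation libraries dropped it at the low-count filter. It was thus tested only through its controls, which the rule requires to be higher, and these calls are a description.

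The 2 genes with the smallest p in the other direction were NVE21832 and NVE26210. NVE21832 had 0.130 to 0.604 CPM (median 0.318) with the translation morpholino and 0.932, 0.740, 0.826 and 0.192 CPM in splice libraries 1 to 4, after 1.06 to 1.87 CPM in controls. Splice libraries 1 to 3 lay above all translation libraries and splice library 4 lay among the lowest of them. Its log2 difference was 0.87 ± 0.4 (SE) and it was not called (edgeR adjusted p = 0.16, and 0.067 to 0.76 over its alternatives).

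NVE26210 held 0.325 to 0.604 CPM (median 0.413) with the translation morpholino and 0.808, 0.605, 0.635 and 0.384 CPM in splice libraries 1 to 4. The groups overlapped at splice library 4, and controls stood at 0.948 to 1.97 CPM. The log2 difference of 0.49 ± 0.3 (SE) was not called (edgeR adjusted p = 0.3, and 0.24 to 0.94 over its alternatives). Among the libraries numbered after 52970, which hold only splice library 4, the difference was -0.73 for NVE21832 and -0.14 for NVE26210.

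For the gene with the highest control level, NVE12741, the splice minus translation difference was 0.17 ± 0.39 (SE), with a 95% interval of -0.66 to 1 and an edgeR adjusted p of 0.81. The intervals of the 27 genes that were not called extended 0.634 to 1.45 log2 units to either side of the estimate, with a median of 0.838. For 22 of the 27 they included a difference of 2-fold in at least 1 direction, and for 5 they lay within 2-fold in both. The median standard error was 0.4 for the 28 genes and 0.18 for all genes tested. For most of these genes a 2-fold difference between the morpholinos is therefore not excluded. A missing call does not show that both morpholinos left the same level. The intervals are not adjusted for the number of genes tested, while the calls are. NVE23662, at a 2.79-fold difference, was not called in this fit, so the intervals do not give the smallest difference that could be called.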

How the data were processed

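Raw counts per gene model and library, deposited by the authors, were read for 25729 models, and 92 spike-in rows summing to 0 were left out. Per the submitters' processing notes, STAR 2.5.3a, cutadapt 1.8.1, BWA, DESeq2 1.6.0, Subread 1.6.2 and featureCounts were used, in roles not stated. The annotation and the strand setting of the counting were not given in the sources used here. Genes that overlap, lie antisense or are near-identical were therefore not told apart. The reads were 50 bp single ends. The authors' deposited log2 fold change and p-value columns were read as translation over control. Their rounded normalized values, deposited as a score per library, were not used. Columns were matched to samples through the deposited sample list, with 0 columns left over, and replicates were numbered in accession order. The protocol names 6 biological replicates per group, of which 4 control and 4 splice libraries were analysed. None of the 27 within-group library pairs agreed within sampling noise (chi-square per degree of freedom 8.27 to 54).

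CPM used column sums. The whole table was fitted with edgeR 4.0.16 in R 4.3.3 (filterByExpr, TMM, 3 group means, quasi-likelihood test, two-sided, Benjamini-Hochberg over 22109 genes, called at an adjusted p under 0.05). Standard errors were taken as the size of the log2 fold change over the square root of F. Alternatives used DESeq2 1.42.0 and limma 3.58.1. The scripts were tested on simulated data. The genes and settings were chosen with earlier results of these data known. Named are the 2 genes with the highest control mean and, between the morpholinos, the 2 with the smallest p in each direction; any other gene described by rank was chosen after its values were seen. The ChIP-seq peak lists were not joined to the genes, whose positions were not used here.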

Additional observations from a re-analysis of the deposited data

Results flagged for a closer look

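The sets of values examined within groups numbered 21 (total counts, the summed level of the 30 genes, and the 5 genes named). Of these, 3 held a library far from the others. The nominal rate of the flag is 1 in 20, or 1.05 sets. That rate assumes independent, normally distributed values, and most sets here are low counts of genes chosen from these same values. Nothing is therefore read from setting the 3 beside it. For log10 total count, control library 1 was set apart, with a gap to its neighbour of 0.863 of the group's range, and translation library 6 likewise with 0.639. Splice library 1 stood apart for NVE23662, with a gap of 0.991 of the range, at 8 counts where the other 3 splice libraries had 1 each. For NVE13882 a lower level was called with the splice morpholino, with a log2 difference of -1.48 (edgeR adjusted p = 0.048). It was called in 5 of 25 fits, and its splice mean rests on 15 counts. The rule used every one of these values, so the flag is a description.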

How the results depend on the processing

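With TMM or median-ratio scaling, or with controls required to average 1 CPM or more, the rule found 26 genes, all among the 30. A limit of 0.5 CPM in the morpholino libraries left 2. Leaving out 1 library gave 28 to 46 genes; the 46, found without control library 3, held 26 of the 30. The level left with the splice morpholino was 28.3% in the libraries numbered after 52970, and 35.6 to 40.5% without 1 library. With the translation morpholino it was 33.1 to 36.2% without 1 library, and every alternative moved it by less than the spread between libraries. Genes called lower with the splice than with the translation morpholino numbered 2 by DESeq2 and at an adjusted p under 0.1. They numbered 0 by edgeR with column sums, with no low-count filter, with only the splice and translation libraries (5 of the 30 genes passed that fit's filter) and in either part of the title numbers, and 0 to 1 without 1 library. Genes lower than control numbered 15 (translation) and 11 (splice) in the libraries numbered up to 52970, where 5.94 and 4.49% of all genes were called lower. In the later part 0 were called lower with the translation morpholino, where 0.022% of all genes were, so the drop holds for the whole table. That part holds 1 splice library, so no splice count is given for it. Without 1 library the genes called lower than control numbered 15 to 30 (translation) and 9 to 23 (splice), of 28 or 30 tested. Of all genes, 1183 to 2343 and 620 to 1391 were called lower, of 22032 to 22363 tested. The cause was not tested. In the later libraries the difference between the morpholinos had the opposite sign for NVE12741 (-0.59), NVE21832 (-0.73) and NVE26210 (-0.14). The labels give no replicate numbers. In a fit chosen after seeing the data, the 4 translation and 4 splice libraries with neighbouring title numbers were taken as pairs. Over all genes tested, the deviations of paired libraries from their group means correlated at 0.39, 0.47, 0.28 and 0.03. Every translation library correlated best with its neighbour, where the highest value with another splice library was -0.08, -0.12, 0.24 and 0.026. The third pair hardly stands out and the last pair is too weak, so the main fit does not treat the numbers as pairing the samples. Its standard errors and p-values therefore leave out any variation that neighbouring libraries share. With this replicate block 0 of the genes were called between the morpholinos, with 2 lower and 1 higher at an unadjusted p under 0.05. Of all 22109 genes in that fit, 1437 were called lower and 1428 higher, and 6931 had an unadjusted p under 0.05. In the same 8 libraries without the block 0 of the genes were called, where 967 of all genes were called lower and 910 higher. The sign turned for NVE12741 (-0.0216 with the block and -0.0169 without), and the edgeR adjusted p was 0.093 for NVE13882 with the block. NVE21832 and NVE26210 were higher in the splice library of all 4 pairs, and NVE12741, NVE13882 and NVE23662 in that of 1 pair each. The genes were named from values in these same libraries, so the pairs are no further support. Counts of at most 24 per morpholino library limit every value here.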

Other observations

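Of the 30 genes, 1 pair carried consecutive model numbers, the genes ranked 7 and 10. Their control means were 1.48 ± 0.437 and 1.4 ± 0.495 CPM (SD, n = 4), with 24.7 and 30% left with the translation morpholino and 35.6 and 35.4% with the splice morpholino. Whether the 2 models lie side by side or share reads was not analysed here.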
